A study of Mus musculus with 12 samples.

Results

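Genes of serotonin synthesis, storage and breakdown and of enterochromaffin identity were followed through 4 populations of mouse intestinal epithelial cells. The 10 genes are Tph1, Ddc, Gch1, Slc18a1, Slc18a2, Maob, Tac1, Fev, Lmx1a and Trpa1, out of 30265 gene symbols in the deposited table. They were chosen by name from knowledge of the pathway, with earlier results of these data already known. All 10 were in the table and all 10 had enough reads to be tested. Cells came from C57Bl/6 mice with a Sox9-GFP reporter, which marks cells by their level of the crypt transcription factor Sox9, and were sorted by reporter level into gates called Sox9 High, Low, Sublow and Negative. The labels name no treatment, age, sex, intestinal segment or reporter construct. For each gate 3 libraries (A, B and C) were made from 12000 sorted cells apiece, using total RNA depleted of ribosomal transcripts. In published work with this reporter, High has been described as rich in enteroendocrine and tuft cells, Low in cycling stem cells, Sublow in progenitors and Negative in differentiated cells.

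Enterochromaffin cells are the enteroendocrine cells of the gut epithelium that make serotonin, and they are the main source of serotonin in the body. Tph1 hydroxylates tryptophan with tetrahydrobiopterin as its cofactor, whose synthesis begins with Gch1, and Ddc then removes the carboxyl group to give serotonin. The vesicular monoamine transporters Slc18a1 (VMAT1) and Slc18a2 (VMAT2) load the amine into granules, and monoamine oxidases such as Maob degrade it. In the mouse the transcription factors Fev and Lmx1a are linked to the enterochromaffin fate, Tac1 encodes the precursor of substance P that many of these cells also make, and the cation channel Trpa1 lets them sense irritants.

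The start regions of Tph1, Tac1, Fev and Lmx1a are shown because, of the genes with an entry, these had the largest differences between High and Negative. The sequences are from RefSeq (GRCm38.p6), 5′ to 3′ on the gene's strand, from 250 bases before to 50 bases after an annotated start, and 7 of the 10 genes matched an entry. Capitals mark matches on either strand to any of 4 letter patterns: the ETS core CCGGAA, the LIM homeobox core TAATTA, the E-box CAGATG and the cyclic AMP response element TGACGTCA. Tph1 has a pair of annotated starts, at chr7:46672488-46672787 and chr7:46667328-46667627 on the minus strand. Tac1 is at chr6:7554811-7555110 on the plus strand, Fev at chr1:74885359-74885658 on the minus strand and Lmx1a at chr1:167689308-167689607 on the plus strand.
Tph1, upstream start: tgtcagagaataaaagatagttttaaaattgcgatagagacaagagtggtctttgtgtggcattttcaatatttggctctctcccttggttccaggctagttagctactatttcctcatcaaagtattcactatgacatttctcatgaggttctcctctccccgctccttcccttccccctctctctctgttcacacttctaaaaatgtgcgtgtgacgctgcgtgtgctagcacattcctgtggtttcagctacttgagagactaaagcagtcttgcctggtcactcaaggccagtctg
Tph1, downstream start: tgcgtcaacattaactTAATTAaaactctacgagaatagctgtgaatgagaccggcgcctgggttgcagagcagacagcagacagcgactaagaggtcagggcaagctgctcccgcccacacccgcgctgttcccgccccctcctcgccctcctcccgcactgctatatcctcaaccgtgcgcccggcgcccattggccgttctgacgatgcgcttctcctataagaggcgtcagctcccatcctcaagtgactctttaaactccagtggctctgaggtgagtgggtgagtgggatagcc
Tac1: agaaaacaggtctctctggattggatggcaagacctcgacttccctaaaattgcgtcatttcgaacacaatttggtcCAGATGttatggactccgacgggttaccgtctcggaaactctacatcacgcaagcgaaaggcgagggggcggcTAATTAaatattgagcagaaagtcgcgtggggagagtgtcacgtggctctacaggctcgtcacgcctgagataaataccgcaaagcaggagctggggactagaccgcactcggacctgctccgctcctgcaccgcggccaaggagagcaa
Fev: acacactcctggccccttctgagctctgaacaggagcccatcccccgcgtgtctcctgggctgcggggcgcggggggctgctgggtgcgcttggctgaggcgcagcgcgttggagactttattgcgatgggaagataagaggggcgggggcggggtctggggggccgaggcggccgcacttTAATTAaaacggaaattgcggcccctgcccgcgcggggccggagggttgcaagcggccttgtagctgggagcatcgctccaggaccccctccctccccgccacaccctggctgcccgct
Lmx1a: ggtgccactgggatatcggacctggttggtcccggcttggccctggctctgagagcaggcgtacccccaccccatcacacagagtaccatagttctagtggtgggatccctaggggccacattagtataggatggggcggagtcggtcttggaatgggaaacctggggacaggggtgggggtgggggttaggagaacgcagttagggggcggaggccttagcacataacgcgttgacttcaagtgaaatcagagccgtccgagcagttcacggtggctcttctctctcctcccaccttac

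The homeobox core TAATTA lay 234 bases before the downstream start of Tph1, 100 bases before that of Tac1 and 69 bases before that of Fev, and 5.29% of 32851 windows of this kind hold it. An E-box lay 173 bases before the Tac1 start (17.2% of windows). Of the other windows of these genes, that of Slc18a2 held a cyclic AMP response element 4 bases before the start (1.79% of windows). The ETS core, present in 14.9% of windows, was not among the letters of the windows found for Tph1, Tac1, Ddc, Slc18a2, Fev, Lmx1a or Gch1. A match is a run of letters, not a bound site.

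Libraries held 11.6 M to 17.0 M reads assigned to genes. Values are normalised read counts, given by library or as mean ± SD (n = 3 libraries), and a floor of 3 reads stands at 2.38 to 4.61 normalised counts, depending on the library. Differences are on the log2(value + 1) scale with their standard error, from limma with Benjamini-Hochberg adjustment over 16577 genes and a threshold of adjusted p below 0.05. Whether libraries of a gate came from different mice is not in the labels, and the p-values cover only how far the libraries lie apart. Sox9 itself followed the order of the sort, at 20262 ± 1220.2 in High and 6601 ± 921 in Low, with 2084 ± 897 in Sublow and 604 ± 191 in Negative.

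High carried the most reads of 9 of the 10 genes, and Maob, a gene of breakdown, had its highest level in Negative. Each of the 9 passed the test against Low, against Sublow and against Negative, in a table where 15.6% of tested genes were higher in High than in each other gate. Maob passed against each other gate in Negative (9.33% of genes did so). In bulk libraries, fewer cells of a type and less RNA per cell cannot be told apart, so these levels do not say how many enterochromaffin cells each gate held.

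**Figure D1:**
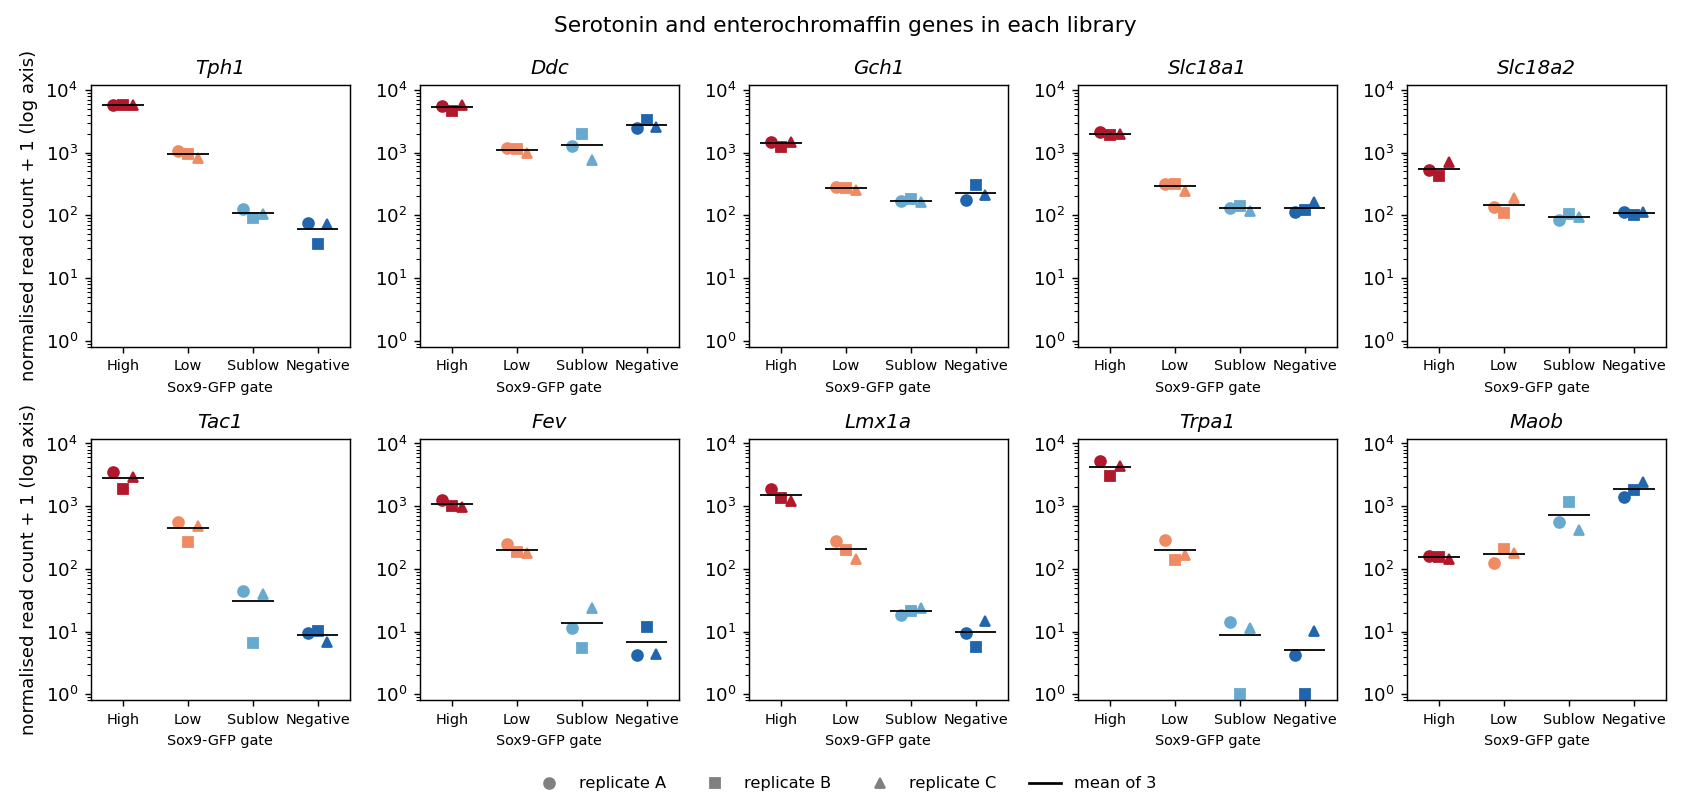
Normalised read count + 1 (log axis) of the 10 genes in the 12 libraries, by Sox9-GFP gate, with 1 point per library (symbol by replicate) and a line at the mean of 3. Tph1 spans 5679 to 5821 in High and 33.8 to 75.0 in Negative, whereas Maob runs the other way, with 145 to 158 in High and 1418 to 2418 in Negative.

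Tph1, which catalyses the committed step of serotonin synthesis, measured 5821, 5735 and 5679 in High A, B and C and 1049, 949 and 821 in Low A, B and C. Sublow libraries followed with 125, 88.3 and 105 and Negative libraries with 75.0, 33.8 and 71.9. No library of one gate overlapped the next, and the 3 High libraries lay closer together than those of any other gate in proportion to their mean. The log2 difference was 2.62 ± 0.26 for High over Low (adjusted p = 1.26e-05), 3.14 ± 0.26 for Low over Sublow (adjusted p = 2.13e-05) and 0.88 ± 0.26 for Sublow over Negative (adjusted p = 0.0267). That last call was lost without Sublow A (adjusted p = 0.0852), Sublow C (0.0676) or Negative B (0.0718, where the difference was 0.51).

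Ddc, the decarboxylase that completes the synthesis and also acts on other aromatic amino acids, did not follow Tph1 below the High gate. It measured 5454, 4678 and 5835 in High, 1163, 1124 and 999 in Low, 1272, 1963 and 750 in Sublow, and 2490, 3283 and 2532 in Negative. High over Low was 2.28 ± 0.27 (adjusted p = 4.28e-05), whereas Low over Negative was -1.33 ± 0.27 (adjusted p = 0.00106). Sublow over Negative was -1.15 ± 0.27 (adjusted p = 0.0109, and 0.0501 without Negative B). Low and Sublow overlapped (adjusted p = 0.685). High therefore stood only 0.95 ± 0.27 above Negative (adjusted p = 0.0092), against 6.64 ± 0.26 for Tph1.

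Gch1, GTP cyclohydrolase, which makes the first intermediate of tetrahydrobiopterin, was highest in High, with smaller differences among the other gates. Its counts were 1461, 1237 and 1489 in High, 284, 274 and 257 in Low, 169, 178 and 163 in Sublow, and 173, 303 and 208 in Negative. The difference of High over Low was 2.35 ± 0.19 (adjusted p = 3.02e-06) and Low over Sublow 0.67 ± 0.19 (adjusted p = 0.02). Without Low A, Low B or Sublow A that smaller difference did not pass (adjusted p = 0.0695, 0.0538 and 0.0509). Low over Negative was 0.29 ± 0.19 (adjusted p = 0.2), with overlapping libraries, and passed without Negative B (0.52, adjusted p = 0.0167). Scaling libraries to the same total gave 0.85 for Gch1 there (adjusted p = 0.00059).

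Of 7 other listed genes of tetrahydrobiopterin, 2 were higher in High than in Low and 1 was lower, shares near those of all tested genes (23.6% higher and 19.3% lower). The median log2 difference was 0.18, against 0.10 over all tested genes. Qdpr, which recycles the cofactor, measured 960 ± 60.5 in High and 617 ± 34.2 in Low (0.64 ± 0.11, adjusted p = 0.00077). Pcbd1, which takes part in the same recycling, measured 424 ± 43.2 and 280.2 ± 33.7 in those gates (0.60 ± 0.17, adjusted p = 0.0138). Gchfr, the feedback regulator of Gch1, measured 10.4 ± 6.51 in High, 4.54 ± 1.03 in Low and 64.5 ± 9.7 in Negative. Its difference of High over Negative was -2.71 ± 0.57 (adjusted p = 0.00134), and that of High over Low did not pass. Tph2, the tryptophan hydroxylase of neurons, stayed at 0.614 ± 1.06 in High and at most 1.74 ± 2.31 elsewhere, below the floor and not tested.

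Both vesicular transporters were highest in High, and both still had reads in every Negative library. Slc18a1 measured 2142, 1939 and 1955 in High, 319, 319 and 239 in Low, 128, 142 and 115 in Sublow, and 111, 118 and 161 in Negative. Between High and Low the log2 difference was 2.79 ± 0.18 (adjusted p = 9.31e-07) and Low over Sublow 1.17 ± 0.18 (adjusted p = 0.000938), while Sublow and Negative overlapped (-0.01 ± 0.18, adjusted p = 0.984). Slc18a2 measured 524, 416 and 695 in High, 135, 107 and 191 in Low, 82.7, 105 and 91.4 in Sublow, and 109.8, 99.96 and 112 in Negative. The log2 difference of High over Low came to 1.92 ± 0.24 (adjusted p = 6.14e-05), and the 3 lower gates did not pass against each other (adjusted p = 0.0911 for Low over Sublow, 0.185 for Low over Negative and 0.539 for Sublow over Negative). Low over Sublow did pass without Low B (0.79, adjusted p = 0.0458). With libraries scaled to the same total, Slc18a2 passed in Low over Sublow (0.86, adjusted p = 0.0248) and in Low over Negative (0.94, adjusted p = 0.00578, against a difference of 0.39). In the GENCODE M21 annotation 2.12% of the exon sequence of Slc18a2 overlaps an exon of Gm29261 on the opposite strand, and the counting rule for such reads is not given in the sources used here.

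Slc18a1 made up 78.8% ± 4.49 of the normalised reads of both transporters in High and 66.9% ± 10.1 in Low, and 58.0% ± 2.5 in Sublow and 54.5% ± 4.38 in Negative. The share reached 82.3% in High B and was lowest in Negative A, at 50.2%. High and Low overlapped, since Low B held 74.9% and High C 73.8%. Every High library lay above every library of Sublow and Negative.

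Maob ran in the opposite order to Tph1. It measured 158, 154 and 145 in High and 123, 206 and 179 in Low, which overlapped (log2 difference -0.12 ± 0.33, adjusted p = 0.799). Sublow held 569, 1183 and 416, and Negative 1418, 1810.0 and 2418. Low over Negative was -3.46 ± 0.33 (adjusted p = 8.69e-06), Low over Sublow -1.97 ± 0.33 (adjusted p = 0.00165) and Sublow over Negative -1.49 ± 0.33 (adjusted p = 0.0094). Within Sublow, library B was highest and C lowest, as it was for Ddc.

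Summed counts of 6 enterocyte markers (Alpi, Sis, Lct, Apoa1, Fabp1 and Anpep, all of them with reads in each gate) were, like Maob, highest in Negative and next in Sublow. They ran from 25885 to 35746 in High, from 11327 to 30999 in Low, 54909 to 316990 in Sublow, and Negative had 386581 to 583968. Sublow C, A and B held 54909, 164536 and 316990 of these counts, the order in which Ddc and Maob increased among those libraries, a pattern picked out after the values were seen. Within High and Negative this did not hold for both genes: High B had the highest marker sum (35746) and the lowest Ddc of its gate, and Negative B had the highest marker sum while Maob was highest in Negative C. The part of enterocytes in the levels of Ddc and Maob was not tested.

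**Figure D2:**
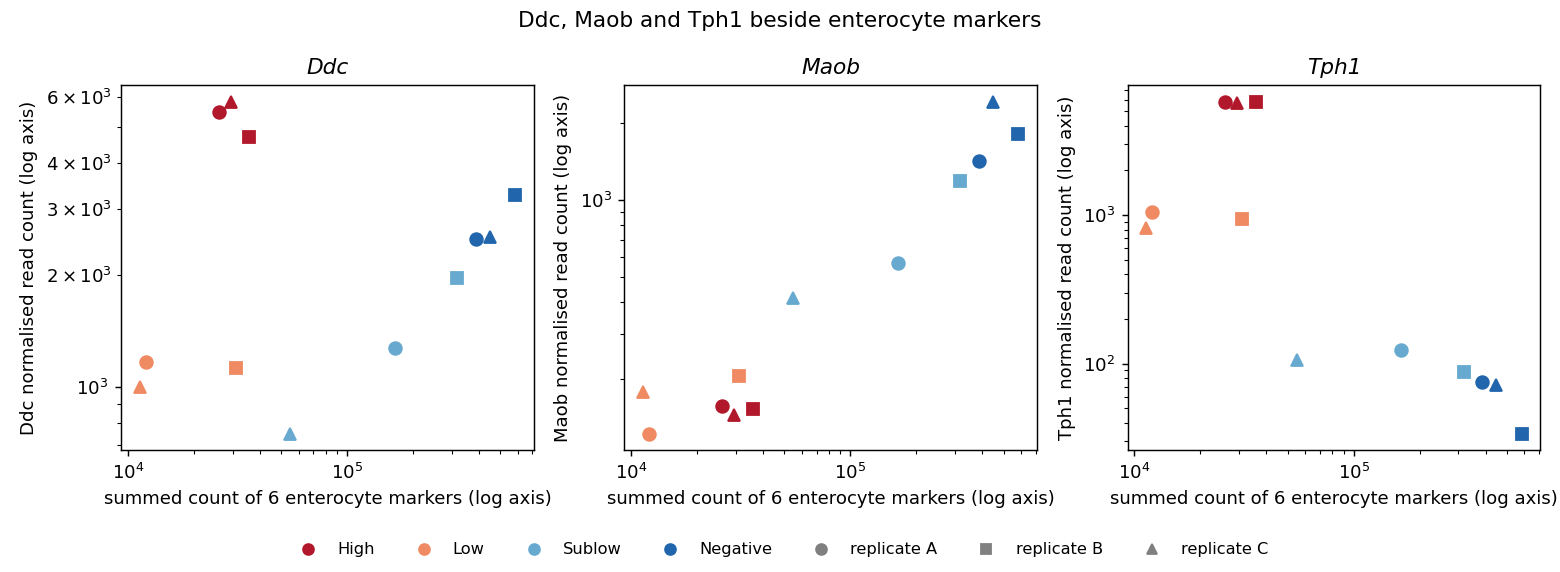
Normalised read counts of Ddc, Maob and Tph1 (log axes) against the summed count of 6 enterocyte markers in the same library (log axis), coloured by gate with symbols by replicate. Negative B, with the highest marker sum, has the highest Ddc outside High (3283) and the lowest Tph1 (33.8), while Maob is highest in Negative C (2418).

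Of 8 tested genes of amine uptake and breakdown, 4 were higher in High than in Negative and 4 were lower, where 28.8% of all tested genes were higher and 25.8% lower. Maoa, the monoamine oxidase that prefers serotonin, measured 832 ± 48.1 in High and 1623 ± 369 in Low, while Sublow had 6309 ± 2508 and Negative 13743 ± 2460 (High over Negative -4.03 ± 0.25, adjusted p = 7.31e-08). Slc6a4, the serotonin reuptake transporter, measured 151 ± 19.6 in High and 198 ± 49.7 in Low, while Sublow had 592 ± 198 and Negative 989 ± 87.8 (High over Negative -2.71 ± 0.24, adjusted p = 1.21e-06). Its difference between High and Low did not pass (-0.36, adjusted p = 0.248). In the opposite direction, the aldehyde dehydrogenase Aldh2, which oxidises the aldehyde that monoamine oxidases form, measured 8990 ± 554 in High and 1721 ± 160.1 in Low (2.39 ± 0.17, adjusted p = 2.02e-06). The monoamine transporter Slc29a4 measured 155 ± 27.9 in High and 49.2 ± 2.71 in Low (1.62 ± 0.34, adjusted p = 0.00209). Against Low, 2 of the 8 were higher in High and 2 lower, with a median log2 difference of -0.19 (0.10 over all tested genes). Those shares are near the 23.6% higher and 19.3% lower of all tested genes.

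Tac1, the tachykinin precursor, measured 3536, 1883 and 2947 in High, 569, 271 and 491 in Low, 43.9, 5.59 and 38.7 in Sublow, and 8.45, 9.23 and 5.71 in Negative. High over Low was 2.67 ± 0.60 (adjusted p = 0.0033) and Low over Sublow 4.22 ± 0.60 (adjusted p = 0.000694). Sublow and Negative overlapped through Sublow B (1.39 ± 0.60, adjusted p = 0.0989), and without that library the difference was 2.29 (adjusted p = 0.000974). DESeq2 on the recovered reads of all libraries called Tac1 there (1.93, adjusted p = 0.00569). Of the other tachykinin genes, only the receptor Tacr1 and the precursor Tac4 could be tested. Tacr1 measured 27.2 ± 4.81 in High and 13.9 ± 2.79 in Low (adjusted p = 0.0867), and Tac4 8.16 ± 7.32 and 12.5 ± 4.06 (adjusted p = 0.323).

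Both transcription factors were highest in High. The mean step of Fev was larger for Low over Sublow than for High over Low, and for Lmx1a the steps lay close together. Whether the steps differ was not tested for either gene. Between the C libraries the Fev step was 2.44 for High over Low and 2.89 for Low over Sublow. The Lmx1a step there was 3.11 for High over Low and 2.57 for Low over Sublow. Fev, an ETS factor that in the mouse is also needed by serotonin neurons, measured 1231, 1007 and 959 in High, 244, 182 and 176 in Low, 10.2, 4.47 and 22.8 in Sublow, and 3.17, 10.8 and 3.42 in Negative. The difference of High over Low was 2.41 ± 0.50 (adjusted p = 0.00197) and Low over Sublow 4.14 ± 0.50 (adjusted p = 0.000263). Lmx1a, a LIM homeobox factor, measured 1894, 1336 and 1227 in High, 279.95, 196 and 141 in Low, 17.4, 20.1 and 22.8 in Sublow, and 8.45, 4.61 and 13.7 in Negative. Between High and Low the log2 difference was 2.88 ± 0.35 (adjusted p = 5.52e-05) and Low over Sublow 3.24 ± 0.35 (adjusted p = 0.000138).

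Between the lowest gates the factors were near the floor. For Lmx1a the 61 reads summed over Sublow and 23 over Negative gave a difference of 1.19 ± 0.35 (adjusted p = 0.0275), a call lost without Sublow A (0.0501), Sublow C (0.083) or Negative B (0.108). Fev, with 40 reads in Sublow and 13 in Negative, did not pass (0.92 ± 0.50, adjusted p = 0.184), but did without Sublow B (1.44, adjusted p = 0.0252).

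Among 15 other tested factors of the enteroendocrine and enterochromaffin lineage, 10 rose and 1 fell in High over Low, with a median log2 difference of 2.24, against 23.6% higher, 19.3% lower and a median of 0.10 over all tested genes. Neurod1 measured 7075 ± 1472 in High and 1066 ± 166 in Low (2.72 ± 0.42, adjusted p = 0.00029), and Pax6 rose by 2.66 ± 0.19 (adjusted p = 2.02e-06). Gata2 had 20.5 ± 2.62 in High and 1.2 ± 0.47 in Low, which is under the floor. Neurog3, needed early for cells to become enteroendocrine, was the one that fell (14.97 ± 9.42 in High, 122 ± 26.5 in Low, adjusted p = 0.0405). Lmx1b, the LIM homeobox factor of serotonin neurons in the mouse, measured 36.9 ± 11.9 in High and 24.6 ± 9.33 in Low (adjusted p = 0.583).

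Trpa1 had the largest log2 difference of the 10 genes in each comparison of High with another gate. It measured 5179, 3058 and 4317 in High and 289.8, 138 and 163 in Low. Sublow A and C held 13.3 and 10.5, and Negative A and C 3.17 and 9.13. Sublow B and Negative B held no read, which allows up to 3.35 and 4.61 normalised counts there. The log2 difference of High over Low came to 4.44 ± 0.95 (adjusted p = 0.00245) and Low over Sublow 5.10 ± 0.95 (adjusted p = 0.00278), while Sublow and Negative overlapped (adjusted p = 0.633). With reads summed over libraries, 14171 in High and 11 in Negative, High was 943-fold above Negative (95% counting interval 527 to 1890). Against Low, with 633 reads, it was 22.2-fold (20.5 to 24.1), and these intervals cover counting error only.

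**Figure D3:**
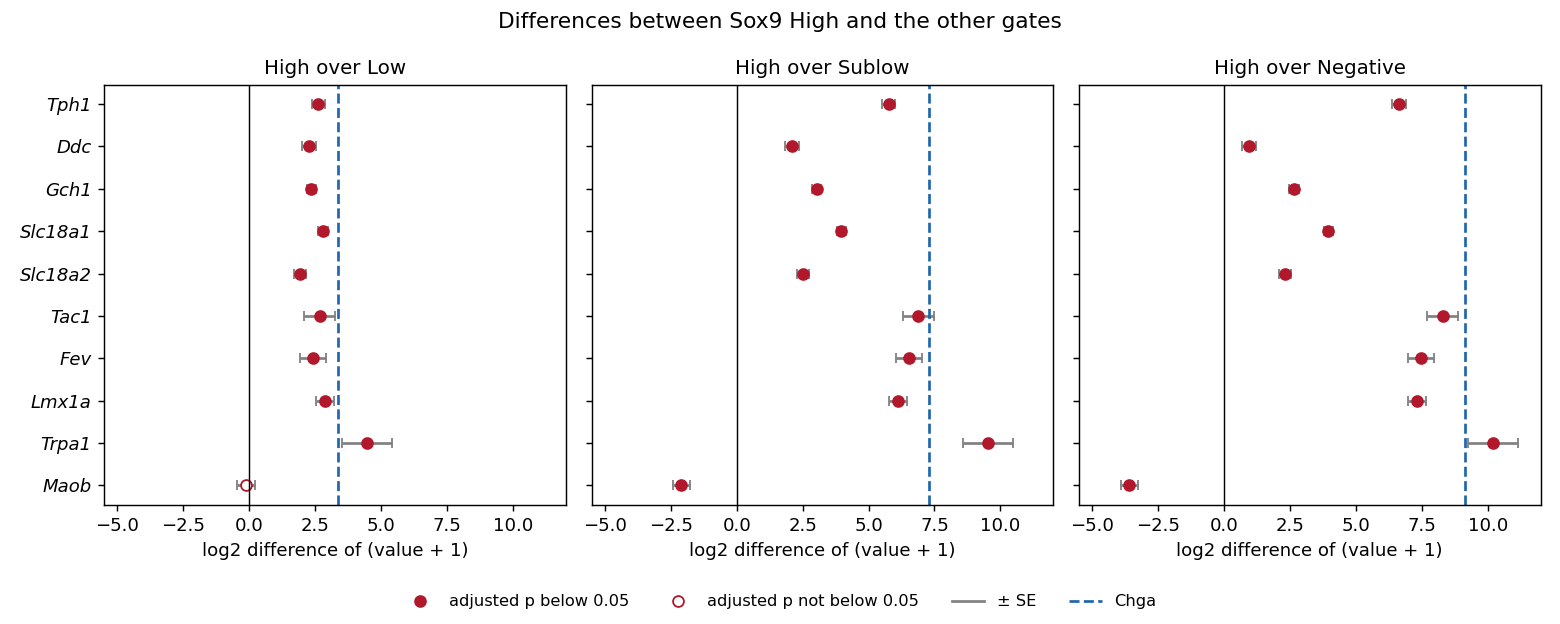
Log2 difference (value + 1, with SE) of each gene between High and each other gate, filled where the adjusted p was below 0.05, with the difference of Chga as a dashed line. In High over Low 8 genes lie between 1.92 and 2.88, Trpa1 at 4.44 and Maob at -0.12, and in the comparisons with Sublow and Negative the genes spread apart.

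Counted over the 10 genes, 9 rose in High over Low, where 23.6% of all tested genes were higher and 19.3% lower, and the median was 2.51 against 0.10 over all tested genes. In High over Sublow 9 rose and 1 fell (26.7% higher and 25.3% lower in the background; median 4.86 against 0.03), and in High over Negative again 9 rose and 1 fell (28.8% and 25.8%; median 5.30 against 0.03). Low over Sublow had 7 higher and 1 lower (10.7% and 13.3%; median 2.16 against 0.06). Low over Negative had 6 higher and 2 lower (30.3% and 26.8%; median 2.59 against 0.05). Sublow over Negative had 2 higher and 2 lower (15.1% and 12.7%; median 0.32 against -0.04), and only 1 was called without Negative B and 2 without Sublow A or Sublow C. The comparisons share libraries, so their counts are not independent.

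Per kb of annotated exon, levels in High ran in the order Ddc, Trpa1, Tph1, Tac1, Fev, Lmx1a, Slc18a1, Gch1, Slc18a2 and Maob. Ddc averaged 1193 ± 132 normalised counts per kb, Trpa1 982 ± 250.2, Tph1 931 ± 11.6, Tac1 820 ± 246 and Fev 659 ± 90.0, and each of these overlapped the next in order. Lmx1a (437 ± 105) lay below Fev in all libraries and overlapped Slc18a1 (372 ± 20.9). Gch1 (223 ± 22.2), Slc18a2 (104 ± 27.0) and Maob (54.6 ± 2.31) followed without overlap. In Negative the order opened with Maob (675 ± 181) and Ddc (621 ± 100.05), which overlapped, and Gch1 came next at 36.5 ± 10.8 per kb.

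Setting the genes against Chga in the same library asked whether they moved as much as a granin that most enteroendocrine cells make. Chga measured 116336 ± 30447 in High and 11576 ± 4073 in Low (3.36 ± 0.39). Relative to Chga, 2 of the 10 genes differed between High and Low: Maob by -3.48 ± 0.55 (adjusted p = 9.61e-09) and Slc18a2 by -1.44 ± 0.54 (adjusted p = 0.00931). The other 8 lay between -1.09 for Ddc (adjusted p = 0.0529) and 1.08 for Trpa1 (adjusted p = 0.0783). Since 93.6% of all genes pass this test (0.199% higher and 93.4% lower), its adjustment changes p little, and the count is unstable: 1 was called without Low C, 4 without High C, Low A or Negative A, and 5 without Sublow B or Negative B. Slc18a2 did not pass without Low C (adjusted p = 0.12) or with Chgb in place of Chga (adjusted p = 0.367).

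Relative to Chga, Tph1 was lower in High than in Sublow or Negative. It measured 5.15 ± 1.20 reads per 100 reads of Chga in High and 8.64 ± 2.27 in Low, while Sublow had 14.9 ± 3.90 and Negative 29.0 ± 6.66, and these ratios do not depend on how libraries are scaled. Set against Chga, Tph1 differed by -1.54 ± 0.52 in High over Sublow (adjusted p = 0.0035) and by -2.52 ± 0.52 in High over Negative (adjusted p = 3.39e-06). Its High over Low difference did not pass (-0.74 ± 0.52, adjusted p = 0.158), and with Chgb in place of Chga neither did High over Sublow (-0.88, adjusted p = 0.402).

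Set against Tph1 in the same library, a comparison chosen after the data were seen, Trpa1 and Maob differed between High and Low. Trpa1 stood at 89.0, 53.3 and 76.0 reads per 100 of Tph1 in High A, B and C and at 27.6, 14.5 and 19.9 in Low A, B and C. The gates did not overlap, and the log2 difference was 1.83 ± 0.65 (adjusted p = 0.0117, and at most 0.0404 under the alternatives run). Only 0.585% of all genes were called as higher relative to Tph1 in this comparison, while 89.3% were called lower and 89.9% in either direction. Maob differed by -2.74 ± 0.43 (adjusted p = 3.3e-06).

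The ratio of Tac1 to Tph1 did not differ detectably between the upper gates, at 48.5 ± 14.3 reads per 100 of Tph1 in High and 47.5 ± 16.6 in Low (0.05 ± 0.52, adjusted p = 0.927). Sublow had 26.1 ± 17.1 and Negative 15.5 ± 10.3, and High over Negative was 1.65 ± 0.52 (adjusted p = 0.00466). In High, Low and Sublow the B library had the lowest Tac1 ratio and also the lowest Trpa1 ratio, a pattern picked out after the values were seen. Fev stood at 18.5 ± 2.30 per 100 of Tph1 in High and 21.3 ± 2.02 in Low, and Lmx1a at 25.8 ± 5.88 and 21.5 ± 4.81.

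**Figure D4:**
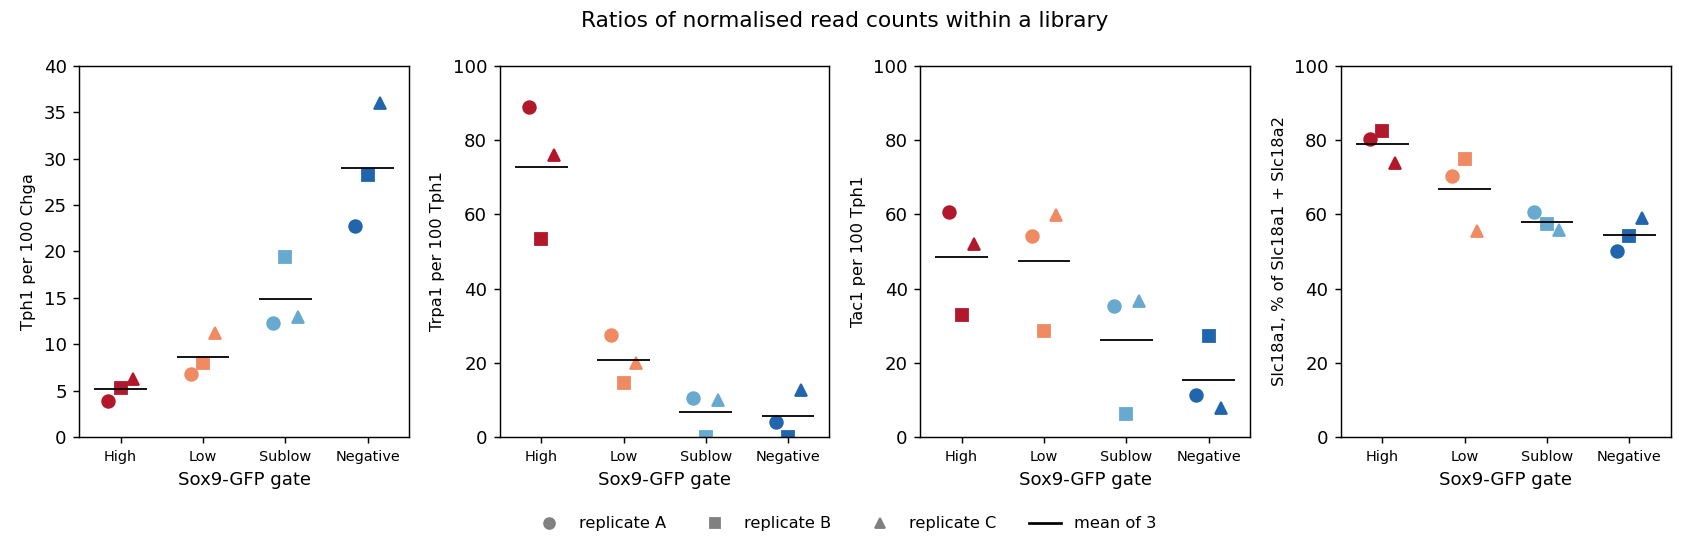
Ratios of normalised read counts within a library, by gate, with 1 point per library (symbol by replicate) and a line at the mean of 3. Trpa1 per 100 Tph1 averages 72.8 in High and 20.7 in Low without overlap, Tac1 per 100 Tph1 overlaps between these gates, and mean Tph1 per 100 Chga is lowest in High (5.15) and highest in Negative (29.0). The share of Slc18a1 among both transporters averages 78.8% in High and 54.5% in Negative.

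By profile over the 12 libraries, the genes closest to Tph1 were Ncam2 (root mean square log2 distance 0.25), a neural adhesion molecule, the transcription factor Runx1 (0.27), the G protein subunit Gnao1 (0.31), the sodium channel Scn3a (0.32) and the presynaptic scaffold Pclo (0.37). Candidates were 10393 genes. Of the other genes of the set, Lmx1a came at rank 6, Fev at 171, Tac1 at 241, Slc18a1 at 378 and Gch1 at 716. Trpa1 came at rank 753, Slc18a2 at 778, Ddc at 2230 and Maob at 10068. The distance is a description of likeness over libraries that share gates.

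Genes listed with enterochromaffin sensing and excitability were higher in High than in Low for 9 of 13 tested, with 1 lower and a median log2 difference of 1.94 (23.6% higher, 19.3% lower and a median of 0.10 over all tested genes). Olfr558, an odorant receptor of these cells, measured 103 ± 35.9 in High and 4.34 ± 2.40 in Low (4.36 ± 0.55, adjusted p = 7.14e-05). Kcnb2, a voltage-gated potassium channel, measured 3353 ± 82.5 in High and 559 ± 37.7 in Low (2.58 ± 0.24, adjusted p = 8.27e-06). Gpr35 was the gene that fell, at 192 ± 25.3 in High and 365 ± 66.2 in Low (-0.92 ± 0.17, adjusted p = 0.00101). Piezo2, a mechanosensitive channel, measured 36.7 ± 10.7 in High and 27.7 ± 3.87 in Low (adjusted p = 0.517).

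All 13 tested genes of vesicles and granules rose in High over Low (median 2.82; 23.6% of all tested genes were higher), led by Reg4, a secreted lectin, at 13902 ± 1443 in High and 774 ± 188 in Low (4.19 ± 0.32, adjusted p = 2.77e-06). Of 11 tested peptide genes of other enteroendocrine cells, 8 rose (median 3.26), among them Ucn3, urocortin 3, at 301 ± 85.0 in High and 15.3 ± 4.4 in Low (4.21 ± 0.55, adjusted p = 9.06e-05).

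Of 6 tested serotonin receptor genes, 1 rose and 1 fell in High over Low, near the 23.6% higher and 19.3% lower of all tested genes. Htr1d was higher in High (115 ± 30.4, against 20.4 ± 2.04 in Low, adjusted p = 0.00137) and Htr4 was lower (15.1 ± 9.54, against 199 ± 39.3 in Low, adjusted p = 9.36e-05). Of 9 tested genes of tryptophan uptake and other use, 2 rose and 2 fell in High over Low, again near the 23.6% and 19.3% of all tested genes, with a median of -0.05. Slc6a19, a neutral amino acid transporter, measured 2943 ± 396 in High and 544 ± 131 in Low (2.45 ± 0.46, adjusted p = 0.00106). Its mean was highest in Negative, at 4198 ± 878, and High over Negative did not pass. Ido1, which opens the kynurenine route, measured 5.91 ± 5.27 in High and 216 ± 258 in Low (-4.74 ± 1.03, adjusted p = 0.00284). Of 2 tested genes of other amines, Th, tyrosine hydroxylase, rose to 365 ± 73.3 in High, against 65.2 ± 19.5 in Low (2.49 ± 0.71, adjusted p = 0.0131).

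Mast cells also make serotonin in rodents, and their 9 markers summed to 3.61 to 8.29 normalised counts in High and 3.27 to 8.72 in Low, while Sublow had 4.39 to 5.59 and Negative 3.42 to 8.45. Mcpt1 and Mcpt2 had no read in High. Markers of enteric neurons (8 genes) summed to 1024 to 1189 in High and 208 to 259 in Low, while Sublow had 152 to 223 and Negative 223 to 288, of which Chat, also made by tuft cells, held 848 ± 116 in High. Of the 5 tested, 3 were higher in High than in Low and 0 lower. Over all tested genes, 23.6% were higher and 19.3% lower. Besides Chat these were Elavl3 (75.1 in High, 30.3 in Low, adjusted p = 0.0181) and Elavl4 (52.9 and 11.5, adjusted p = 0.0116). The 4 glia markers summed to 182 to 277 in High and 149.8 to 212 in Low, while Sublow had 150.3 to 269.6 and Negative 239 to 295.

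Tuft cell markers (5 genes, all higher in High than in Low) summed to 67726 to 72048 in High and 6922 to 11414 in Low, while Sublow had 141 to 392 and Negative 69.2 to 129. The 5 enteroendocrine markers, all higher in High than in Low, summed to 326288 to 533473 in High and 35210.1 to 71222 in Low, while Sublow had 1799 to 5785 and Negative 234 to 1049.7. Leukocyte markers (5 genes) summed to 1966 to 3384 in High and 116 to 212 in Low, while Sublow had 122 to 196 and Negative 112 to 137, with Ptprc at 2469 ± 779 in High. Without Ptprc the other 4 summed to 21.1 to 48.7 in High and 55.7 to 97.5 in Low, and one of them, Itgam, was lower in High (11.5, against 46.3 in Low; -2.26 ± 0.78, adjusted p = 0.0338). The part of tuft cells and leukocytes in the levels of the 10 genes was not tested. Goblet (5 of 5), Paneth (3 of 3) and stem cell markers (4 of 4) were lower in High than in Low. Over all tested genes, 19.3% were lower and 23.6% higher in that comparison.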

How the data were processed

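Total RNA of sorted Sox9-GFP cells was sequenced after ribosomal depletion (SMARTer Pico kit, single-end, per the labels' protocols), with 3 libraries in each of 4 populations. The authors deposited 1 table of normalised counts, a signal equal to read counts divided by a size factor per library; no aligner, counter, strand setting or genome build is given in these sources. In every library 100% of values were whole multiples of 1 step (tolerance 0.01), so reads were recovered and totalled 11.6 M to 17.0 M.

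The test was limma 3.58.1 (R 4.3.3, trend) on log2(value + 1) in 1 fit of all 12 libraries, for 16577 genes with at least 10 in at least 3 libraries, with Benjamini-Hochberg adjustment and a threshold of 0.05; it was tested on simulated data. Its standard errors are pooled over gates. On recovered reads, edgeR 4.0.16 called 7357 genes and DESeq2 1.42.0 called 7714 in High over Low, against 7110 by limma. Alternatives tried were a block for the replicate letter, pseudocounts of 0.5 and 5, no filter, other scalings, fits of 6 libraries and leaving out each library. Exon lengths are from GENCODE M21 (GRCm38). Intervals and floors cover counting error only.

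The genes and lists were chosen with earlier results of these data known. All 10 genes were named; profile neighbours were those with the smallest root mean square difference of centred log2 profiles (mean of at least 100), and other genes were named from the lists, by the 4 largest differences past the threshold or because a result turned on them; Qdpr, Pcbd1, Gchfr, Tph2, Lmx1b, Piezo2, Tacr1 and Tac4 were picked after their values were seen. A result for some listed genes is not reported here.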

Additional observations from a re-analysis of the deposited data

How the results depend on the processing

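Every call of the 10 genes in a comparison with High held under all alternatives run. The count of genes called in Sublow over Negative (4) was 0 by limma in a fit of those 6 libraries alone and 1 to 6 with 1 library left out. In the 6-library fit the adjusted p was 0.149 for Tph1, 0.087 for Ddc, 0.133 for Lmx1a and 0.0804 for Maob. With 1 library left out, the counts ran from 9 to 9 in High over Low, 10 to 10 in High over Sublow and in High over Negative, 7 to 8 in Low over Sublow and 8 to 9 in Low over Negative. Set against Chga, the count in High over Low (2) was 6 with the replicate block, 1 with Chgb in place of Chga and 1 to 5 with 1 library left out; set against Tph1 (2) it was 2 to 3.

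Signs turned only where no call was made. With 1 library left out, Maob in High over Low ran from -0.33 to 0.036 (without Low B), Ddc in Low over Sublow from -0.53 to 0.16 (without Sublow B), and in Sublow over Negative Slc18a1 from -0.11 to 0.16 (without Negative C, and 0.069 without Sublow C) and Trpa1 from -0.25 (without Negative B; -0.035 without Sublow A) to 1.88. Tac1 against Tph1 in High over Low ran from -0.28 (without Low B; -0.13 without High A and -0.021 without High C) to 0.31, and Trpa1 against Tph1 in Sublow over Negative from -0.79 to 0.88 (without Sublow B; 0.38 without Negative C). With libraries scaled to the same total, Ddc in Low over Sublow was 0.099, and in Sublow over Negative Slc18a1 was 0.28 and Slc18a2 0.079; by edgeR Slc18a1 was 0.027 there. The cause was not tested.

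The main test did not treat replicate letters as pairs. In their deviations from gate means, same-letter libraries correlated at 0.05 to 0.34 (13 of 18 pairs over 0.1). The mean was 0.156 for these pairs, and 12 of 12 libraries correlated best with their own letter. For the other pairs the mean was -0.078, which largely follows from the same-letter mean, because deviations from a gate mean cancel within the gate. Libraries of 1 letter thus shared part of their deviations, whose source was not tested, and some calls depended on whether the letter was blocked. With the replicate block, Tac1 in Sublow over Negative passed (adjusted p = 0.0405). Set against Chga, the block added calls in High over Low for Tph1 (-0.74, adjusted p = 0.0358), Ddc (0.0125), Gch1 (0.0129) and Trpa1 (0.0276), and for Tph1 in Low over Sublow (0.0246) and Sublow over Negative (0.00857). Set against Tph1, Tac1 in Low over Sublow also passed (0.00388).

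Over all genes, Low over Sublow called 3979, against 2473 in its 6 libraries alone, 2520 without Low A and 2503 without Sublow B. Sublow over Negative called 4597, against 46 in its 6 libraries alone, 2767 without Sublow A, 2188 without Sublow C and 1748 without Negative B. Scaling to the same total moved the median of all genes in High over Negative to 0.51, against 0.03, and the split of calls to 7469 higher and 2583 lower, against 4776 and 4278. It gave 5464 and 3165 in High over Sublow (4421 and 4201), 3270 and 1303 in Low over Sublow (1778 and 2201), 8080 and 2435 in Low over Negative (5028 and 4446) and 3824 and 610 in Sublow over Negative (2500 and 2097).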
